A study of Arabidopsis thaliana with 2 samples.

Results

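The genes described here are 6 chitinase genes of Arabidopsis thaliana that were followed in rosette leaves: AT2G43570 (CHI), AT2G43590, AT2G43610 and AT2G43620, which lie in a cluster on chromosome 2, and AT4G01700 and AT4G19810 (ChiC), which lie apart from each other on chromosome 4. They were taken as a fixed list of loci, and every probe set that the platform annotation assigns to one of them alone was used. All 6 had at least 1 such probe set, 7 probe sets in all, out of 8297 on the array and of 3592 genes that a probe set of their own names. The genes were chosen by their signals on these same NOT and WDC arrays, so the ratios that follow are a description of these 2 arrays and carry no test.

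Leaves of accession Col-0 at growth stage 3.5 were profiled in a series on the action of nitric oxide in plants, and 1 array was hybridised for each of the codes NOT and WDC. Plants of both groups grew on compost at 22 °C with 24 h of light a day, and seeds had been stratified at 4 °C for 1 week. The labels explain neither code, and the treatment note, attached to the NOT sample, mentions a control without tying it to a code, so ratios are NOT over WDC and neither array is called treated. That note describes each sample as a pool of 4 experiments, each of which yielded RNA of about 8 leaves, and the design text gives 8 pooled plants. The tissue is labelled as rosette leaves, although the extraction note mentions seedlings. Pooling and a single array per group leave no measure of the variation between plants, so precision is limited by the number of arrays.

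Chitinases cut chitin, the polymer of N-acetylglucosamine that stiffens fungal cell walls and insect cuticles and that plants themselves do not make. Plant chitinases belong to the pathogenesis-related proteins, and the chitin fragments they release are sensed by receptor kinases with LysM domains. Class I, II and IV enzymes share one catalytic fold, and class I and IV enzymes usually carry a chitin-binding domain in addition. Class III and V enzymes have an unrelated fold with another reaction mechanism.

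All 6 chitinase genes had a higher signal in the NOT leaves than in the WDC leaves. Relative to WDC, 3 of them (CHI, ChiC and AT4G01700) exceeded 2-fold, 2 more (AT2G43590 and AT2G43620) exceeded 1.5-fold, and AT2G43610 was 1.21-fold higher. AT2G43590 passed 1.5-fold on its brighter probe set alone, with a log2 ratio of 0.08 on its dimmer one and 0.46 as the mean of both. With each gene at its brightest probe set, the median log2 ratio of the 6 genes was 0.97, against -0.02 over all 1934 named genes measured on both arrays. Among those named genes 1.09% reached 2-fold and 4.71% reached 1.5-fold on the higher side in NOT, 2.95% and 9.05% did so on the lower side, and 47.8% had any log2 ratio above 0. Over all 4753 measured probe sets, named or not, the shares were 1.41% and 5.87% on the higher side and 3.32% and 8.73% on the lower side. None of the 6 chitinases was on the lower side. Because the genes were listed for this contrast, nothing is read from the distance between their counts and these shares. In leaf RNA, fewer cells of a type and less RNA per cell cannot be told apart.

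**Figure D1:**
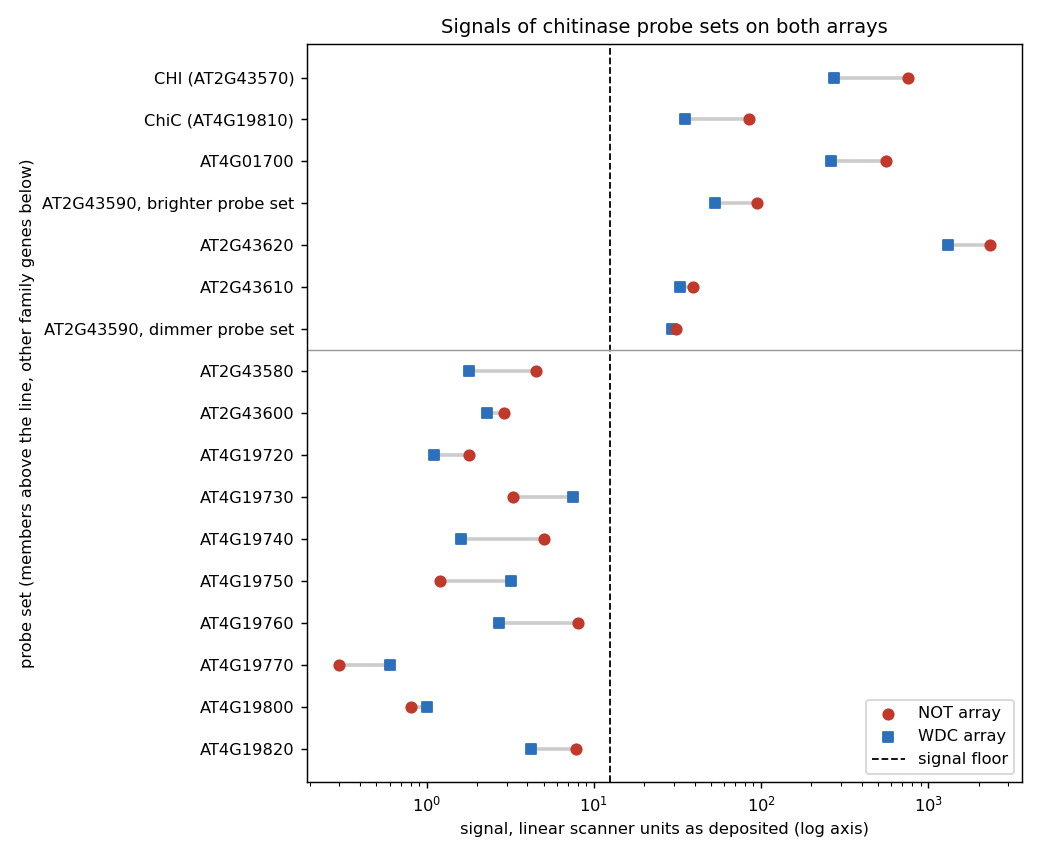
Signals of 17 chitinase probe sets on the NOT array (red circles) and the WDC array (blue squares), on a log axis in the linear scanner units deposited, with the signal floor of 12.5 as a dashed line. The 7 probe sets above the grey line belong to the 6 listed genes and lie right of the floor on both arrays. Those of 10 other family genes below the line all lie left of it. The 6 genes were chosen by their signals on these arrays, so nothing is read from this split.

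The chromosome 2 cluster was represented by class IV enzymes. CHI, annotated as a putative chitinase, reached 755.6 signal units in NOT leaves against 273.9 in WDC leaves. This was a log2 ratio of 1.46 (2.76-fold), the highest of the 6 genes. It held rank 18 of 4753 measured probe sets ordered from the highest ratio, and rank 6 of the 1934 named genes. Both of its signals stood far above the floor, which was set at 12.5 as the 40th percentile of all non-control signals and below which no ratio was taken.

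AT2G43620, at the other end of the cluster, gave 2337.8 in NOT and 1310.8 in WDC. Its log2 ratio was 0.83 (1.78-fold), short of 2-fold. It lay with CHI and AT4G01700 in the brightest of 4 equal bins of mean signal, in which 1.6% of 1189 probe sets were 2-fold or more higher in NOT and 6.22% were 1.5-fold or more higher. Within that bin CHI held rank 2, AT4G01700 rank 13 and AT2G43620 rank 30, ordered from the highest ratio.

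AT2G43590 was read by a pair of probe sets that gave different ratios. The brighter probe set read 94.8 in NOT leaves against 52.8 in WDC leaves, which is a log2 ratio of 0.84 (1.80-fold). The dimmer one read 31.0 in NOT leaves against 29.4 in WDC leaves, which is a log2 ratio of 0.08. The brighter is marked as matching several similar transcripts (suffix s) and the dimmer as designed under relaxed probe rules (suffix r), so related genes can contribute to the signal, and which of them reads AT2G43590 better was not tested. The gap between them was 0.77 on the log2 scale. Within the 93 genes that had more than 1 measured probe set, AT2G43590 included, the log2 ratios had a pooled SD of 0.197 between probe sets. A difference of 2 such ratios, the measure that matches the gap, had an SD of 0.28. Of those 93 genes only ATRX (AT1G08600), a chromatin remodelling factor named here after its value was seen, had a wider gap, 0.87. As the mean of both probe sets the log2 ratio of AT2G43590 was 0.46, under the 1.5-fold rule.

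AT2G43610 read 39.2 in NOT leaves against 32.5 in WDC leaves, which is a log2 ratio of 0.27. This was the smallest ratio of the 6 genes and lay close to the upper quartile of all measured probe sets, 0.22, with a lower quartile of -0.24. Its single probe set carries no mark for shared sequence. With each gene at its brightest probe set, the 4 cluster genes had a median log2 ratio of 0.84.

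The annotated cluster holds a further pair of chitinase genes between these 4, and both stayed below the floor on each array. AT2G43580, next to CHI, read 4.5 in NOT leaves against 1.8 in WDC leaves. AT2G43600, which sits between AT2G43590 and AT2G43610, had 2.9 in NOT and 2.3 in WDC, and its probe set is marked as shared between similar transcripts. No ratio was taken for them, and at such signals neither a level nor a difference can be read. Of the 6 chitinase genes in the run, 4 were thus measured in these leaves, and these were the listed ones. Over the whole array 1934 of 3592 named genes were measured on both arrays.

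Both chromosome 4 genes lay past 2-fold. AT4G01700, a class II enzyme without the chitin-binding domain, gave 556.4 in NOT and 262.0 in WDC. Its log2 ratio was 1.09 (2.12-fold). ChiC, the class V enzyme of the unrelated fold, read 84.1 in NOT leaves against 35.2 in WDC leaves, which is a log2 ratio of 1.26 (2.39-fold). It lay in the second dimmest bin of mean signal, where 1.6% of 1188 probe sets were 2-fold or more higher and 6.14% were 1.5-fold or more higher, and held rank 12 of that bin. The brighter probe set of AT2G43590 held rank 25 and that of AT2G43610 rank 258 in the same bin. The WDC signal of ChiC was 2.82 times the floor, against 21.9 times for CHI and 21.0 times for AT4G01700, so the size of the ChiC ratio rests on a dimmer signal.

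Ordered by ratio, CHI was followed by ChiC, AT4G01700, AT2G43590, AT2G43620 and AT2G43610. The steps between neighbours in this order were 0.21, 0.17, 0.24, 0.01 and 0.56 on the log2 scale. With the pooled SD between probe sets of a gene, a difference of 2 ratios had an SD of 0.28, and only the last step, from AT2G43620 to AT2G43610, was wider than that. This SD reflects probes alone and leaves out differences between plants, and on its dimmer probe set AT2G43590, at 0.08, fell below AT2G43610. The order of the 6 genes, the last place included, is therefore not settled by these arrays.

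**Figure D2:**
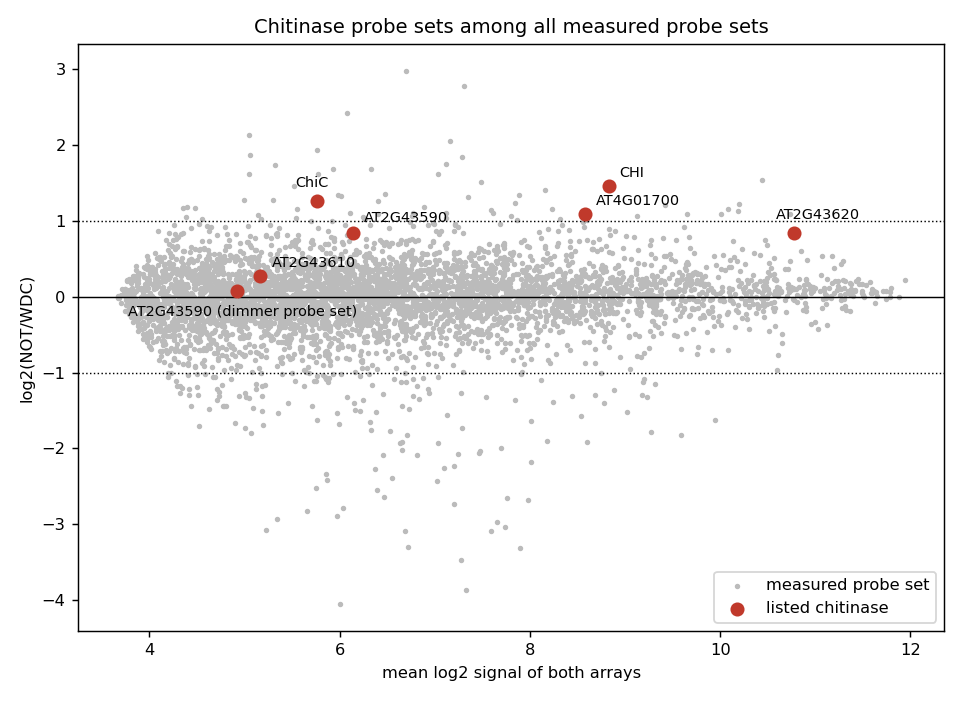
Log2 ratio of NOT over WDC against the mean log2 signal for all 4753 measured probe sets (grey) and the 7 chitinase probe sets (red), with dotted lines at 2-fold. CHI, AT4G01700 and ChiC lie above the upper dotted line, and AT2G43610 and the dimmer probe set of AT2G43590 lie within the cloud.

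ChiC belongs to a tandem run of class V genes, and it was the only one of the 9 with a probe set of their own that passed the floor. The 8 others, AT4G19720, AT4G19730, AT4G19740, AT4G19750, AT4G19760, AT4G19770, AT4G19800 and AT4G19820, were below it on both arrays. Over the whole array 3111 of 8247 non-control probe sets were below it on both, and ChiC was listed for its signals here, so nothing is read from this count. AT4G19760 read 8.0 in NOT and 2.7 in WDC, and AT4G19820 read 7.8 in NOT and 4.2 in WDC. AT4G19730 had 3.3 in NOT and 7.5 in WDC, and the other 5 had signals of at most 5.0. A further probe set that names several of these genes together was left out.

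Across the wider family, 18 other chitinase and chitinase-like genes had been listed by locus. A probe set naming the gene alone was found for 10 of them, and all 10 lay below the floor on both arrays, with NOT signals from 0.3 to 8.0 and WDC signals from 0.6 to 7.5. Of all 8247 non-control probe sets, 3111 lay below the floor on both arrays, so no trait of the family is read from this count. The 10 genes comprised the 8 class V genes and AT2G43580 and AT2G43600 of the cluster. The other 8, among them the basic class I chitinase HCHIB (AT3G12500), the class IV enzyme EP3, the class III enzyme CHIA and the chitinase-like proteins POM1 and CTL2 of cell wall formation, were named by no probe set in the annotation used here and were not analysed. The same held for all 8 listed genes of chitin perception, CERK1 included.

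Genes next to the chitinases were read from their order in the RefSeq gene table, with 15 annotated genes on each side. Around the chromosome 2 cluster 5 flanking genes were measured, all on the side of CHI, and none of them reached 1.5-fold in either direction. AT2G43560, the direct neighbour of CHI, read 301.7 in NOT leaves against 328.4 in WDC leaves, which is a log2 ratio of -0.12 (0.02 with scaling to the spiked-in controls). AT2G43550 stood at -0.53, AT2G43540 at 0.08, AT2G43530 at 0.16 and AT2G43460 at -0.28. On the side of AT2G43620 the single gene with a named probe set, AT2G43670, was below the floor. The other gene below it was AT2G43480, with 7.4 in NOT leaves against 4.6 in WDC leaves. With a floor at the 25th percentile, 4.3, it had a log2 ratio of 0.69, past 1.5-fold, but its WDC signal lay close to that floor.

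Around AT4G01700, 5 neighbours were measured and 1 of them reached 1.5-fold, AT4G01810, with 80.0 in NOT leaves against 46.6 in WDC leaves and a log2 ratio of 0.78. AT4G01740 stood at 0.24, AT4G01610 at 0.22, AT4G01590 at 0.02 and the transcription factor gene WRKY47 (AT4G01720) at -0.13 (0.01 with scaling to the spiked-in controls). Both signals of AT4G01740, 15 in NOT and 12.7 in WDC, lay close to the floor. AT4G01595, AT4G01730, AT4G01760 and AT4G01780 were below the floor on both arrays.

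Around ChiC 2 neighbours were measured on both arrays. AT4G19860 read 92.1 in NOT leaves against 63.7 in WDC leaves, which is a log2 ratio of 0.53, short of 1.5-fold (0.64 and past it with median scaling, 0.68 with control scaling). AT4G19880, with 15 in NOT leaves against 24.6 in WDC leaves, had a log2 ratio of -0.71, past 1.5-fold on the lower side (-0.57 and short of it with control scaling, -0.54 with the offset). AT4G19865 was above the floor in NOT alone, with 16.3 there and 10.2 in WDC, at least 1.30-fold higher. Besides the class V genes, AT4G19910 was below the floor. Above the floor of 12.5 the chitinases had higher ratios at all 3 places than each flanking gene measured on both arrays, apart from the dimmer probe set of AT2G43590. The chitinases were listed for this contrast whereas the flanking genes were taken by position, so nothing is read from this difference. AT2G43610 exceeded AT2G43530 by less than the SD of such a difference. With the floor at the 25th percentile AT2G43480, at 0.69 on signals below 12.5 on both arrays, stood above AT2G43610 and above the mean of both AT2G43590 probe sets, 0.46.

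**Figure D3:**
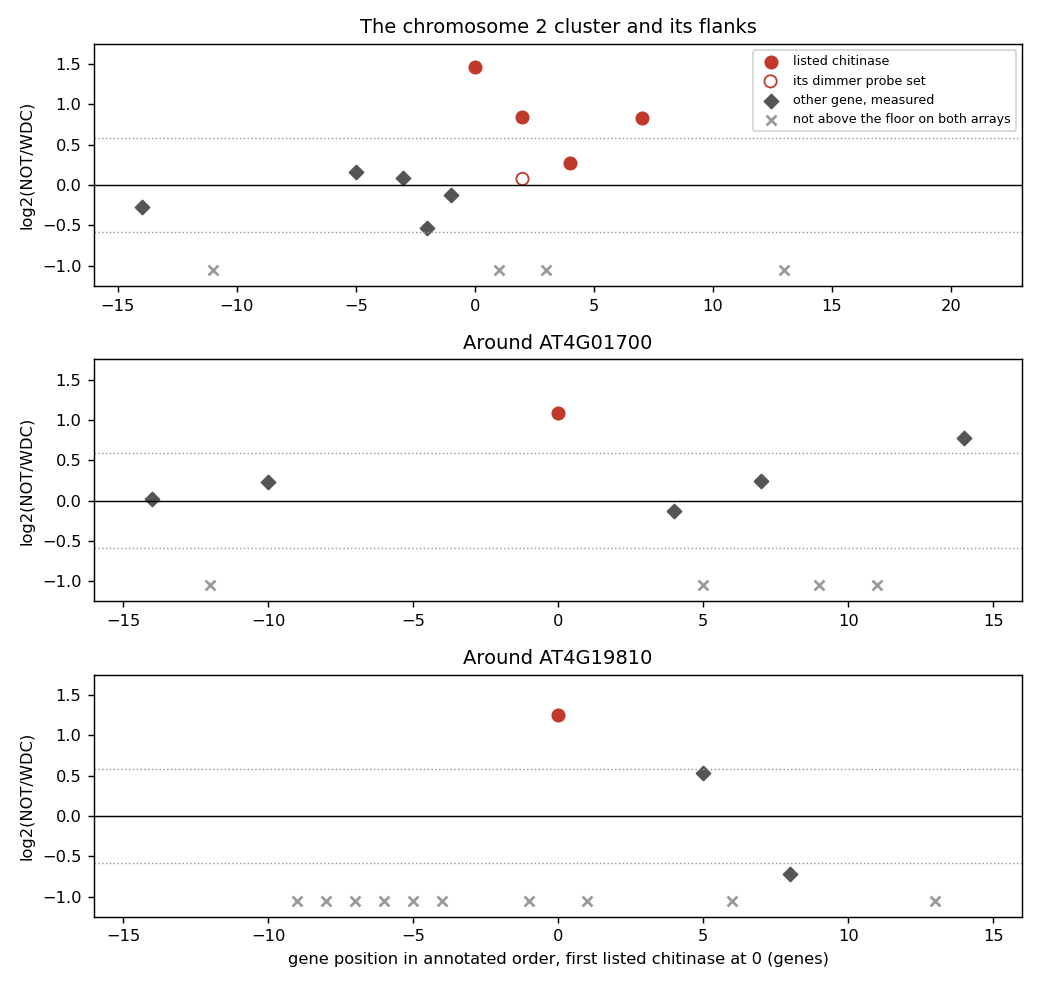
Log2 ratio of NOT over WDC by position in the annotated gene order around the chromosome 2 cluster, AT4G01700 and AT4G19810 (ChiC), with the first listed chitinase at 0 and dotted lines at 1.5-fold. Red circles are the listed chitinases (open for the dimmer probe set of AT2G43590), grey diamonds are other measured genes, and crosses mark genes with a probe set that was not above the floor on both arrays.

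Of 18 other pathogenesis-related genes listed, 5 had a named probe set, 2 were measured on both arrays, and neither reached 1.5-fold in either direction. LCR69 (AT2G02100), of the plant defensin family, read 1285.4 in NOT leaves against 1548.2 in WDC leaves, which is a log2 ratio of -0.27. The thionin THI2.1, an antimicrobial peptide gene induced by jasmonate, read 26.5 in NOT leaves against 31.2 in WDC leaves on its brightest probe set, with a log2 ratio of -0.24, and its other probe sets were below the floor. Both readings came from probe sets with a suffix that was grouped here as shared, s for LCR69 and i for THI2.1. PR-1-LIKE (AT2G19990), a relative of the defence protein gene PR1, had 9.3 in NOT and 66.2 in WDC, at least 5.30-fold lower in NOT. The osmotin gene OSM34 and the defensin gene PDF2.1 were below the floor on both arrays.

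The named genes with the most similar pair of signals were found by Euclidean distance over both log2 signals, a likeness that rests on 2 arrays. For CHI the nearest was AT1G78830, with 640.3 in NOT and 352.2 in WDC at a distance of 0.43, followed by AT4G01700 and DER2.1 (AT4G21810). For AT4G01700 they were AT2G05540, the calreticulin CRT1b (AT1G09210) and DER2.1, at 0.26, 0.28 and 0.31. ChiC lay nearest to AT4G24340, AT4G00700 and the transcription factor WRKY53, at 0.25, 0.31 and 0.38. WRKY53 read 109.2 in NOT leaves against 34.0 in WDC leaves. For AT2G43590 they were NIH (AT1G06670), AT3G48080 and ATERDJ2B (AT4G21180), for AT2G43610 AT4G36440, AT4G14500 and AT4G18205, and for AT2G43620 AT4G24920, AT2G38870 and AT2G45180. The probe sets of DER2.1 (suffix g), CRT1b (suffix s), AT4G24340 (suffix i) and AT2G45180 (suffix s) carry a suffix grouped here as shared.

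The leaf label was set against marker genes. The 3 photosynthesis genes with a named probe set, out of 30 listed, gave signals far above the floor on both arrays: RCA, rubisco activase, had 2469.2 in NOT and 2441.5 in WDC, LHB1B2, a light-harvesting protein, had 1904.7 in NOT and 1865.6 in WDC, and PSAN, of photosystem I, had 1138.9 in NOT and 1334.8 in WDC. The probe sets of RCA and LHB1B2 are marked for shared sequence. Of 17 listed genes of root, seed, flower and pollen, only XTH21, a root gene, had one, below the floor on both arrays at 0.3 in NOT and 0.6 in WDC. The 9 spiked-in hybridisation controls had log2 ratios from -0.28 to -0.03 with a median of -0.14, all below 0, and the GAPDH signal at the 3' end over that at the 5' end was 1.24 in NOT and 1.19 in WDC, while that of ubiquitin was 1.45 in NOT and 1.13 in WDC. Apart from the scaling that follows, the part of these control differences in the chitinase ratios was not tested.

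Scaled to the spiked-in controls, under which the median over all probe sets became 0.14, the log2 ratios of the 6 genes ran from 0.41 for AT2G43610 to 1.61 for CHI. With median scaling that median became 0.10. Both scalings add a constant to every ratio. Under no scaling, floor or offset tried did any of the 6 genes that could be measured have a ratio below 0, and CHI stayed between 1.42 and 1.61.

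**Figure D4:**
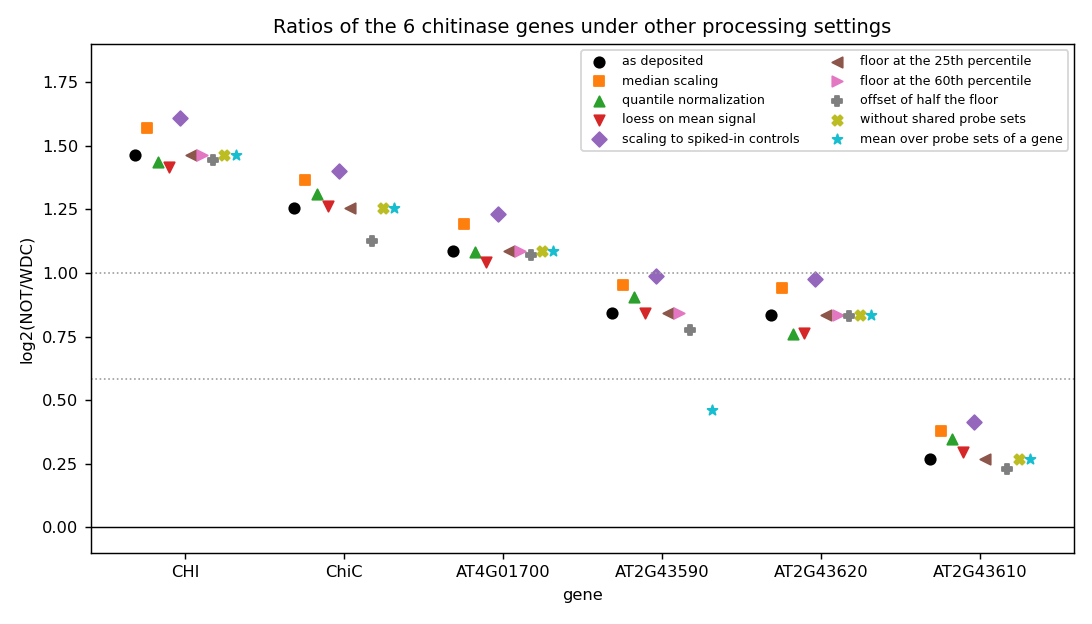
Log2 ratio of NOT over WDC of each chitinase gene as deposited (black) and under 9 other settings, with dotted lines at 1.5-fold and 2-fold. CHI, ChiC and AT4G01700 stay above 2-fold wherever they are measured, AT2G43590 and AT2G43620 lie between the lines except for the mean of both AT2G43590 probe sets at 0.46, and AT2G43610 lies under both lines.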

How the data were processed

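RNA of 2 pooled leaf samples was labelled with biotin and hybridised to Affymetrix arrays with 1 colour. The deposited file holds linear intensity values, 1 for each probe set on each array, with no detection calls. The authors seem to have scaled both arrays alike before deposit, since the mean intensity without the highest and lowest 2% was 100.0 on each. The sources used here do not name the software that summarised the probes. Per the labels, background averaged 75.02 for NOT and 76.78 for WDC.

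Probe sets were named through the platform annotation and, by gene ID, a RefSeq table of assembly TAIR10.1 that also gave gene order. Of 8247 non-control probe sets 3794 named 1 gene (3784 matched to RefSeq), 70 several and 4383 none. Log2 ratios, with no offset, were taken for the 4753 above the floor on both arrays. For 141 above it in NOT only and 242 in WDC only, the brighter signal over the floor bounds the fold. A gene stands for its brightest probe set. No p-value was computed, as each group had 1 array. The listed genes and comparison lists were chosen with earlier results of these data known. All listed genes with a named probe set were named, besides the 3 nearest genes to each chitinase. The calling step was tested on simulated data, with 3-fold changes put on signals well above the floor and called by the 2-fold rule. That test did not cover the 1.5-fold rule or changes in dim signals. Alternatives were 4 scalings (median, quantile, loess with a span of 0.4, spiked-in controls), the 25th and 60th percentile as floor, an offset of 6.25, no shared probe sets, the mean over probe sets and a 3-fold rule. Probe sets with the suffix s, g, f, i, r or x were grouped as shared. Python 3.11.15, numpy 2.4.6, pandas 2.3.3, statsmodels 0.14.6 and matplotlib 3.10.9 were used.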

Additional observations from a re-analysis of the deposited data

How the results depend on the processing

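The counts of 5 chitinase genes past 1.5-fold and 3 past 2-fold on the higher side in NOT, with 0 on the lower side, stayed within 1.5 times under all scalings, both floors, the offset, the removal of shared probe sets and the mean over probe sets (lowest counts 4 and 2). A 3-fold rule left 0 genes, with 0.316% of probe sets higher and 1.18% lower by that rule. The mean over probe sets moved AT2G43590 to 0.46. Median scaling raised the share of probe sets at least 1.5-fold higher to 9.29%, and scaling to the spiked-in controls raised it to 10.6% and the 2-fold share to 2.17%, against 2.59% of probe sets 2-fold lower, each by adding a constant. The 60th percentile floor left ChiC and AT2G43610 unmeasured, and without shared probe sets AT2G43590 was not measured. The 25th percentile floor newly measured PR-1-LIKE (-2.83), AT2G43480 (0.69), AT4G01595 (0.39) and AT4G19865 (0.68). No value of a chitinase or a listed gene past 1.5-fold changed sign. No paired analysis was possible because each group had 1 array. Signal over background limits the ratios of ChiC, AT2G43610 and AT2G43590.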
